A study of Mus musculus with 81 samples.

Results

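The genes described here are 45 genes of the G2 phase and of mitosis, listed by symbol, in RNA-seq libraries of WT mouse macrophages and of macrophages with a conditional knockout (cKO) of the histone H3.3 genes. They are 45 of the 54079 to 55450 genes that the count tables list, and all 45 passed the filter on low counts in each of the 5 experiments. By role they are 6 genes of mitotic entry, 2 proliferation markers, 4 spindle checkpoint genes, 3 mitotic kinases, 4 genes of the chromosomal passenger complex, 9 motor and spindle genes, 6 kinetochore genes, 2 cytokinesis genes, 4 genes of anaphase and mitotic exit and 5 condensin genes.

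Mitosis follows DNA replication and a second gap phase, G2. Cyclin B bound to the kinase Cdk1 drives entry into mitosis, the spindle checkpoint holds division until every kinetochore is attached to microtubules, and the anaphase-promoting complex then marks securin and cyclin B for destruction so that the sister chromatids separate. Most of these genes are transcribed in G2 and M, under the MuvB complex with B-Myb and Foxm1, so a summed level of their RNA moves with the share of dividing cells in a culture. Bone marrow progenitors divide in the presence of M-CSF and largely leave the cell cycle as they become macrophages. In RNA from bulk samples, fewer dividing cells and less transcript per dividing cell cannot be told apart.

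WT mice carried floxed alleles of both H3.3 genes (H3f3a fl/fl H3f3b fl/fl), and cKO mice carried these alleles with LysM cre/cre, in which the lysozyme M promoter drives Cre in myeloid cells. The paper describes its animals as derived from a C57BL/6 background, of both sexes and 8 to 10 weeks old. It lists the Sting and Mavs knockout parent lines on mixed strain backgrounds. The Mavs line was backcrossed to the cKO strain before use. Bone marrow-derived macrophages (BMDMs) were grown from marrow in medium conditioned by L929 cells, a source of M-CSF. The labels number biological replicates without saying which mice they came from, so p-values measure the spread between these libraries.

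The libraries fall into 5 experiments, each fitted by itself. The time course holds cells of both genotypes after 3, 5 and 7 days of culture (n = 3 for each genotype and day). The day 8 experiment holds BMDMs left untreated or given interferon gamma (IFNg) for 12 h (WT n = 3, cKO n = 2). Peritoneal macrophages were taken from WT and cKO mice (n = 3 each). The antibody experiment holds WT and cKO BMDMs that received no antibody, an isotype control antibody (IgG1) or a monoclonal antibody to the interferon receptor chain IFNAR1 during culture (n = 3 each). The last experiment holds 3 sets of WT and cKO BMDMs (n = 3 for each genotype and set) and BMDMs of cKO mice crossed to Sting, Mavs or Irf7 knockouts (cKO:StingKO, cKO:MavsKO and cKO:Irf7KO, n = 3 each).

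Counts on genes ranged from 14419697 to 20220329 per library in the time course, from 3614967 to 10498769 on day 8, from 7625225 to 23381318 in peritoneal macrophages, from 5295144 to 34380735 in the antibody experiment and from 21504555 to 45581528 in the sets. H3f3a was at 6.95 to 27.3% of its WT mean in the cKO groups. H3f3b was at 75.0 to 89.5% of its WT mean in all experiments but the antibody one, where it was at 11.5 to 13.3%. Lyz2, the gene that holds the Cre insertion, was under 0.3% of its WT mean in every cKO group. All of 10 macrophage markers were detected in every group, at a summed 8869 to 23090 CPM. Xist, expressed from the inactive X of female cells, was high in some libraries and near 0 in others, and its levels are given beside the comparisons they touch. Values are counts per 1000000 counts on genes (CPM), scaled by edgeR's TMM factors, a log2 fold change is given with its standard error (SE), and a gene was called when its adjusted p from edgeR's quasi-likelihood test over all genes tested was under 0.05.

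Per kilobase of exon, Mki67, whose product coats mitotic chromosomes, had the highest level of the 45 genes in most groups, at 65.4 CPM per kb in WT cells on day 3 against a median of 14.1 CPM per kb over the 45 genes. Cdc25c, a phosphatase that activates Cdk1, was the lowest in every group and stood at 2.68 CPM per kb in the same cells. The order at the top differed in a few groups. Top2a, the topoisomerase that untangles replicated DNA, was highest in cKO cells on day 3 at 35.3 CPM per kb and in IFNg-treated WT BMDMs at 35.5 CPM per kb. Ccnb2 was highest in peritoneal macrophages, at 18.4 CPM per kb in WT and 28.6 CPM per kb in cKO cells. Pttg1 was highest in IFNg-treated cKO BMDMs at 39.1 CPM per kb, and Incenp in cKO BMDMs with the control antibody at 10.6 CPM per kb.

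The first comparison asked how the genes differed between WT and cKO progenitors early in culture. On day 3 nearly all the mitotic genes were lower in cKO cells by value, but no lower gene passed the test. The log2 fold change was below 0 for 44 of the 45 genes, with a median of −0.57, a 1.48-fold lower level, against a median of 0.04 over the 15955 genes tested. None was called lower, against 2.64% of all genes tested, although 19 had an unadjusted p under 0.05 and a lower level. Pttg1, which encodes securin, was the exception and rose (1 of 45 genes called higher, against 6% of all genes tested). In 35 of the 45 genes every cKO library lay under every WT library, as it did in 15.8% of all genes tested.

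Among genes of mitotic entry, Ccnb1, which encodes cyclin B1, stood at 76.9, 68.3 and 44.3 CPM in the WT libraries of day 3 and at 41.6, 38.7 and 43.6 CPM in the cKO libraries. Ccnb2, which encodes cyclin B2, stood at 55.0, 57.7 and 37.7 CPM in WT and at 29.1, 25.8 and 27.6 CPM in cKO cells. No cKO library reached the lowest WT library in either gene, and Ccnb2 came closest to the threshold among the lower genes, with a log2 fold change of −0.87 and an adjusted p of 0.0680. Mki67 was at 707, 766 and 501 CPM in WT and at 299, 286 and 366 CPM in cKO libraries, the lowest log2 fold change of the 45 genes, with an adjusted p of 0.0887.

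Bub1b, which encodes the checkpoint protein BubR1, was at 98.5, 109 and 75.5 CPM in WT libraries of day 3 and at 63.2, 61.7 and 65.3 CPM in cKO libraries, again without overlap. Aurkb, the kinase of the chromosomal passenger complex, was at 73.0, 69.6 and 50.1 CPM in WT and at 54.9, 47.8 and 45.2 CPM in cKO cells, and these ranges overlapped. Kif11, the motor that pushes spindle poles apart, was at 121, 123 and 94.1 CPM in WT and at 86.5, 80.9 and 89.8 CPM in cKO cells. For both Bub1b and Kif11 the cKO libraries were close together and under the lowest WT library, WT replicate 3. Ndc80, the kinetochore subunit that binds microtubules, was at 40.4, 44.0 and 30.4 CPM in WT and at 26.0, 26.1 and 29.5 CPM in cKO cells. Espl1, the separase that cuts cohesin, was at 91.2, 102 and 78.1 CPM in WT and at 72.4, 78.1 and 61.9 CPM in cKO cells, where 1 cKO library came up to the lowest WT library. Ncapg, a condensin subunit, was at 43.2, 53.6 and 36.6 CPM in WT and at 31.9, 34.1 and 33.4 CPM in cKO cells, without overlap. None of these 6 genes was called.

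The roles differed little from each other on day 3. Median log2 fold changes were −0.78 for the proliferation markers and for the cytokinesis genes, −0.61 for motors and spindle genes, −0.59 for mitotic entry, −0.56 for the checkpoint, −0.53 for the kinetochore, −0.51 for the kinases, −0.44 for anaphase and exit, and −0.42 for the passenger complex and for condensin. The SE of a single gene was 0.19 to 0.37. With only the 6 libraries of day 3 in the model, 32 of the 45 genes were called lower, and DESeq2 called 4 lower. The shares of all genes called lower in these fits are not given here, and the 2.64% given above is from the main fit. With the replicate number as a block, Ccnb2 was called too, with a log2 fold change of −0.88 and an adjusted p of 0.0442, and without WT replicate 3 of day 3 there were 2 calls.

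Markers of other cells moved along with genotype on day 3. The summed level of 9 myeloid progenitor markers was 496 to 833 CPM in WT and 906 to 1303 CPM in cKO libraries, with none of the 9 called, that of 8 B cell markers was 13.6 to 14.5 CPM against 27.9 to 58.0 CPM (6 called higher), and that of 5 basophil and mast cell markers was 3.70 to 5.503 CPM against 16.2 to 31.2 CPM (4 called higher). The summed level of 10 macrophage markers was 10520 to 15820 CPM in WT and 9083 to 10790 CPM in cKO libraries, and Cd68 was called lower (log2 −0.68, adjusted p = 0.0401). That of 5 dendritic cell markers was 2.80 to 7.16 CPM in WT and 9.93 to 12.9 CPM in cKO libraries, with Ccr7 and Xcr1 called higher. The share of all genes tested called higher on day 3 was 6% and the share called lower 2.64%. No marker of these lists was at 0 in either group, and their part in the level of the mitotic genes was not tested.

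**Figure D1:**
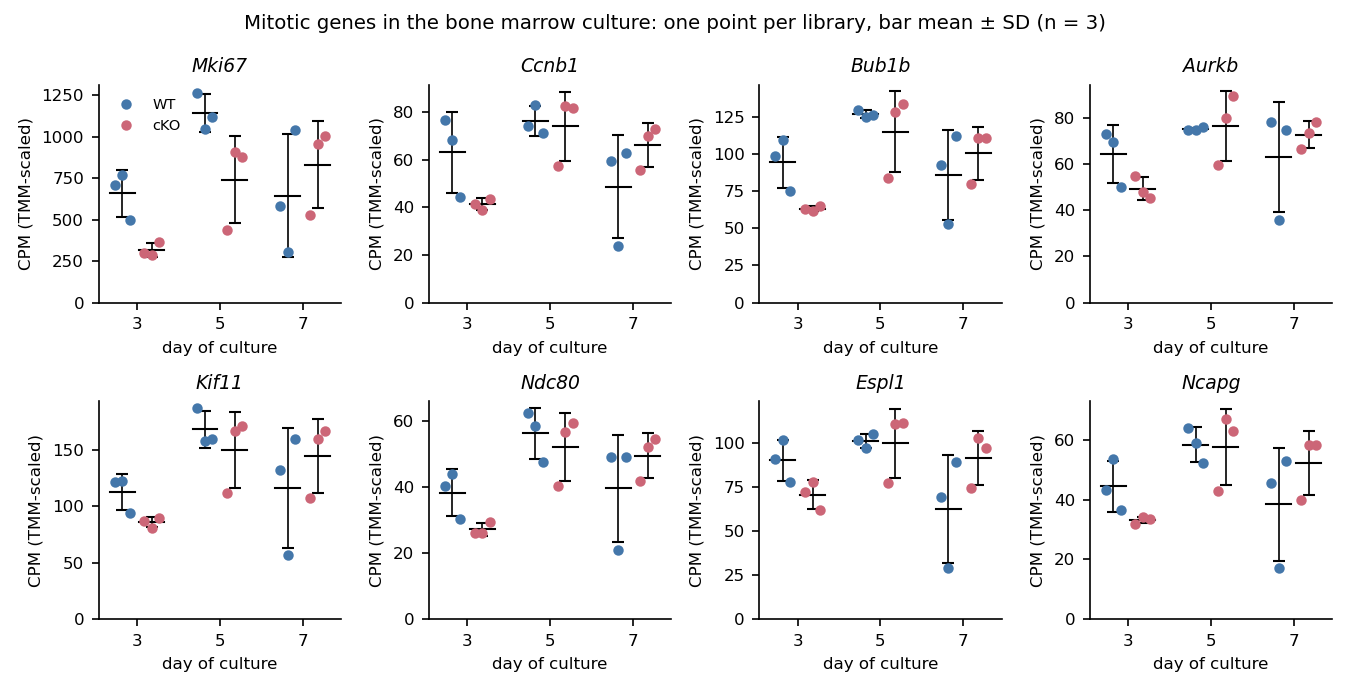
CPM (vertical axis, linear) of 8 mitotic genes by day of culture (horizontal axis) in WT (blue) and cKO (red) cells; each point is a library and bars show the mean ± SD (n = 3). On day 3 the cKO points lie together under the WT points in most panels, and on day 7 the WT points spread widely, with WT replicate 2 the lowest.

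By day 5 the median difference was smaller by value, and its change from day 3 to day 5 was not tested. The median log2 fold change of the 45 genes was −0.10, with 39 below 0, the lowest of them Mki67 at −0.62, and Pttg1 was the single call (1 of 45 genes, against 2.46% of all genes tested called higher). Mki67 was at 1265, 1044 and 1121 CPM in WT and at 436, 908 and 880 CPM in cKO libraries. Ccnb1 was at 74.3, 83.1 and 71.1 CPM in WT and at 57.4, 82.7 and 81.9 CPM in cKO cells. In both genes cKO replicate 1 stood apart from its replicates, and it was the lowest cKO library of day 5 in 45 of the 45 genes. Bub1b was at 130, 125 and 126 CPM in WT and at 83.7, 128 and 134 CPM in cKO cells, Kif11 at 187, 158 and 159 CPM against 111, 167 and 171 CPM, and Ncapg at 63.9, 58.9 and 52.2 CPM against 43.0, 66.8 and 62.8 CPM. Aurkb was at 74.6, 74.6 and 75.9 CPM in WT and at 59.6, 80.1 and 89.4 CPM in cKO cells, Ndc80 at 62.4, 58.5 and 47.7 CPM against 40.2, 56.5 and 59.4 CPM, and Espl1 at 102, 97.2 and 105 CPM against 77.4, 111 and 111 CPM. In each of these 6 genes cKO replicate 1 lay under the WT range and the other two lay within or above the WT range. Markers of other cells stood apart in the same library, with summed progenitor markers at 487 CPM against 191.9 and 233 CPM in the other cKO libraries of day 5, and neutrophil markers at 1603 CPM against 630 and 480 CPM. Over the genotypes, progenitor markers were at 58.7 to 90.9 CPM in WT and 192 to 487 CPM in cKO libraries (6 of 9 called higher), and their part was not tested.

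On day 7 all 45 genes had a log2 fold change above 0, with a median of 0.37 (1.29-fold), but again only Pttg1 was called (1 of 45 genes, against 1.13% of all genes tested called higher). Mki67 was at 585, 307 and 1043 CPM in WT and at 529, 955 and 1006 CPM in cKO libraries. Ccnb1 was at 59.4, 23.8 and 62.8 CPM in WT and at 55.5, 69.9 and 73.0 CPM in cKO cells, and the groups overlapped in both genes. WT replicate 2 was the lowest WT library in 43 of the 45 genes and cKO replicate 1 the lowest cKO library in all 45. Bub1b was at 93.0, 53.0 and 113 CPM in WT and at 79.8, 111 and 111 CPM in cKO cells, Kif11 at 132, 56.5 and 159 CPM against 107, 160 and 167 CPM, and Espl1 at 69.6, 28.9 and 89.5 CPM against 74.5, 103 and 97.6 CPM. Aurkb was at 78.3, 35.7 and 74.9 CPM in WT and at 66.3, 73.6 and 78.2 CPM in cKO cells, Ndc80 at 48.9, 20.8 and 48.9 CPM against 41.8, 52.1 and 54.6 CPM, and Ncapg at 45.4, 16.9 and 52.8 CPM against 39.8, 58.4 and 58.3 CPM. The positive median rested in part on that WT library, since it was 0.06 without WT replicate 2 and 0.66 without WT replicate 3 of day 7. Summed progenitor markers were at 5.04 to 11.9 CPM in WT and 36.1 to 83.1 CPM in cKO libraries of day 7 (5 of 9 called higher), and stromal markers at 4.43 to 40.7 CPM and 87.5 to 126 CPM (none of the 4 tested was called), and their part was not tested.

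The change of the cKO effect from day 3 to day 7 was tested as an interaction. Its log2 value was above 0 for 44 of the 45 genes, with a median of 0.90 (1.86-fold) against −0.04 over all genes tested. None was called by edgeR, where 0.0439% of all genes tested were called, 35 had an unadjusted p under 0.05, and DESeq2 called 1, Kif20a, a kinesin of cytokinesis (adjusted p = 0.151 in edgeR).

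Within a genotype, 13 of the 45 genes rose from day 3 to day 5 in cKO cells (1.61% of all genes tested called higher), with a median log2 fold change of 0.85 (1.80-fold), and in 43 genes every library of day 5 lay over every library of day 3, as it did in 14.9% of all genes tested. Markers of less mature and of other cells fell between these days in cKO libraries, with summed progenitor markers at 906 to 1303 CPM and then 192 to 487 CPM (7 of 9 called lower), neutrophil markers at 2421 to 3701 CPM and then 480 to 1603 CPM (6 of 9) and B cell markers at 27.9 to 58.0 CPM and then 5.30 to 13.6 CPM (5 of 8), and their part was not tested. The share of all genes tested called lower between these days is not given here. The 13 mitotic genes called were 3 of 6 genes of mitotic entry, 5 of 9 motor and spindle genes, 2 of 6 kinetochore genes and 1 each of the checkpoint, kinase and cytokinesis genes. Ccnb2 rose from 27.5 ± 1.66 to 72.9 ± 24.6 CPM (SD, n = 3), a log2 fold change of 1.41 (SE 0.28, adjusted p = 0.00974). Anln, which encodes the cleavage furrow protein anillin, rose from 59.0 ± 5.52 to 154.5 ± 44.96 CPM (log2 1.39, SE 0.35, adjusted p = 0.0319). Nusap1, a spindle protein, rose from 28.8 ± 2.33 to 62.1 ± 11.8 CPM (log2 1.11, SE 0.26, adjusted p = 0.0207). The kinetochore gene Cenpf and the kinase gene Plk1 rose by log2 values of 1.20 (SE 0.33, adjusted p = 0.0491) and 1.09 (SE 0.27, adjusted p = 0.0277). The count depended on the replicates of day 5: there were no calls without cKO replicate 3 of day 5, 26 without cKO replicate 1 of day 5 and 2 without cKO replicate 1 of day 3, and each of the 6 libraries moved the count by more than 1.5 times.

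In WT cells the median log2 change from day 3 to day 5 was 0.43 (1.34-fold), and 1 of 45 genes was called higher, against 0.646% of all genes tested. This was Cdc25b, a phosphatase that activates Cdk1, at 53.3 ± 9.74 CPM on day 3 and 91.3 ± 21.0 CPM on day 5 (log2 0.78, SE 0.20, adjusted p = 0.0448). The call was lost without any 1 of 5 of the 6 WT libraries (it held without WT replicate 2 of day 3), and 11 genes had an unadjusted p under 0.05. From day 5 to day 7 the WT median was −0.60 (1.51-fold lower), 44 of the 45 genes had values below 0, and 31 had every library of day 7 under every library of day 5, as 7.18% of all genes tested had. None passed in edgeR, against 0.107% of all genes tested called lower, 24 had an unadjusted p under 0.05 and a lower level, and DESeq2 called 0. The lowest adjusted p was 0.150 for Kif20a, and without WT replicate 3 of day 7 there was 1 call. In cKO cells the median from day 5 to day 7 was −0.11, with 0 calls by edgeR or DESeq2 (0.0501% of all genes tested called) and no gene under an unadjusted p of 0.05.

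Pttg1 was higher in cKO cells on all 3 days of the time course. Its product, securin, holds separase inactive until anaphase. On day 3 Pttg1 was at 13.2, 11.7 and 11.5 CPM in WT and at 25.1, 24.2 and 24.7 CPM in cKO libraries, a log2 fold change of 1.03 (SE 0.22, adjusted p = 0.00739). On day 5 it was at 12.6, 10.9 and 9.91 CPM in WT and at 29.4, 35.7 and 37.7 CPM in cKO libraries, a log2 fold change of 1.62 (SE 0.22, adjusted p = 0.00139). The genotypes did not overlap on either day. On day 7 it was at 22.3, 13.8 and 12.4 CPM in WT and at 21.6, 36.1 and 37.4 CPM in cKO libraries, which overlapped (log2 0.97, SE 0.22, adjusted p = 0.0327). That last call was lost when WT replicate 2 or 3 or cKO replicate 2 or 3 of day 7 was left out.

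Genes that move through G2 and M together often carry a CHR element, written TTTGAA in its usual form and also found as TTTAAA in some promoters, and boxes with the letters CCAAT. RefSeq promoters of build GRCm38.p6, each 250 bases before and 50 bases after a transcription start, were found for 37 of the 45 genes (39 promoters). TTTGAA on either strand was in the promoters of 26 of the 37 genes (70.3%), against 20.2% of the 27025 genes with a promoter. TTTAAA, which reads alike on both strands, was in 24.3% against 14.9%, and CCAAT on either strand in 26 genes (70.3%) against 41.1%. At least 1 of these forms of the CHR element was in 81.1% of the 37 genes against 30.6%, and such a match together with a CCAAT box was in 64.9% against 12.2%. No match to any of these motifs was in the promoters of 5 of the 37 genes, Mad2l1, Nusap1, Nuf2, Ncaph and Pttg1, so the lack of a match is not particular to Pttg1. The promoter of Pttg1 is printed with those of Ccnb1, Ccnb2, Plk1 and Ube2c, members of the entry, kinase and anaphase roles that hold such matches. Each runs 5′ to 3′ on the gene's strand, and capitals mark matches to either form of the CHR element or to the CCAAT box on either strand.
Ccnb1, chr13:100786437-100786736, minus strand: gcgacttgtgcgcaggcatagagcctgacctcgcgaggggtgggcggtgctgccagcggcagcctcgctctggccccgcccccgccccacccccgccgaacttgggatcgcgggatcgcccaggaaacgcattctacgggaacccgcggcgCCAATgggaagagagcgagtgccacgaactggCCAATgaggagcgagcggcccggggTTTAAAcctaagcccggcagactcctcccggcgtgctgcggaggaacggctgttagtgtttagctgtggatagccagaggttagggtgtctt
Ccnb2, chr9:70421505-70421804, minus strand: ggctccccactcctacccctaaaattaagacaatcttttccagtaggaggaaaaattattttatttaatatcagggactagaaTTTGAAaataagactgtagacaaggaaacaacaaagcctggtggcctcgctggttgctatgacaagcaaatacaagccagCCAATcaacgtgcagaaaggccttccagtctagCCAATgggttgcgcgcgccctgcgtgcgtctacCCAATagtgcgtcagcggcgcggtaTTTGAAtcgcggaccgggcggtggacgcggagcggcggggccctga
Plk1, chr7:122159185-122159484, plus strand: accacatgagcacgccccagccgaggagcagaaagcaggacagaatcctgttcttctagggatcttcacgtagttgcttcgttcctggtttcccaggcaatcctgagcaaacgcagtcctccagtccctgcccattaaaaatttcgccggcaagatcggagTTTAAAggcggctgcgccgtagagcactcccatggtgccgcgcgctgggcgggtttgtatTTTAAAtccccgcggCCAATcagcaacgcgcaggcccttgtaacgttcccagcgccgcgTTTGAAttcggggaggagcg
Ube2c, chr2:164769679-164769978, plus strand: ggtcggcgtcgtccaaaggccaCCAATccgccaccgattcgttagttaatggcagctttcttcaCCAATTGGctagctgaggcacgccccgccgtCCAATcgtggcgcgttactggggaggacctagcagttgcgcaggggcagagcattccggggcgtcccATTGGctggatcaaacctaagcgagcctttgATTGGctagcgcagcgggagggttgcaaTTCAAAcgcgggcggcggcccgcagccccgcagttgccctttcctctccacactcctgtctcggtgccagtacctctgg
Pttg1, chr11:43425932-43426231, minus strand: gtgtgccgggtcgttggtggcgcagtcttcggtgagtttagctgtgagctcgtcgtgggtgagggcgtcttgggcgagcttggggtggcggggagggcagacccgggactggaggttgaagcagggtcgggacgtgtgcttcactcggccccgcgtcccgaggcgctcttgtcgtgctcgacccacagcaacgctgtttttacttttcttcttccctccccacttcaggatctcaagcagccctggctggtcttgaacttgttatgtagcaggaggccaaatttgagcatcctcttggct
A match is a description of the letters and not a bound site, and the lack of a match says only that these letters are not in this window. The window of Pttg1 lies wholly inside the gene as annotated for the counts (chr11:43420250-43426251, minus strand). The bases before that annotated 5′ end of Pttg1 were therefore not searched.

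On day 8 the question was whether IFNg acted alike in both genotypes. In untreated BMDMs the mitotic genes of WT and cKO cells were close, with a median log2 fold change of −0.06 between −0.28 for Ncapg and 0.34 for Cdc20. None of the 45 was called by edgeR or DESeq2, against 0.658% of all genes tested, and none had an unadjusted p under 0.05. The WT libraries spread widely, with replicate 1 the highest and replicate 2 the lowest in all 45 genes. Mki67 was at 736, 248 and 548 CPM in untreated WT and at 462 and 395 CPM in untreated cKO BMDMs.

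With IFNg, 20 of the 45 genes fell in cKO BMDMs against untreated cKO cells (16.4% of all genes tested called lower), with a median log2 fold change of −1.26 (2.40-fold lower). In 41 genes both treated libraries lay under both untreated libraries, as in 32.1% of all genes tested. All of the proliferation markers, 4 of 5 condensin genes, 3 of 4 checkpoint genes and 3 of 6 kinetochore genes were among the calls, and none of the 3 kinases. Bub1, a checkpoint kinase, was at 45.8 and 43.9 CPM in untreated and at 7.25 and 9.54 CPM in treated cKO BMDMs, the lowest log2 fold change at −2.39 (SE 0.46, adjusted p = 0.00325). Ncapg was at 37.1 and 36.5 CPM untreated and at 10.9 and 9.78 CPM treated (log2 −1.84, SE 0.41, adjusted p = 0.00701). Nuf2, which pairs with Ndc80 at the kinetochore, and Prc1, which bundles microtubules of the central spindle, fell by log2 values of −1.90 (SE 0.50, adjusted p = 0.0156) and −1.82 (SE 0.49, adjusted p = 0.0169). The number of calls changed with the cKO library left out. With n = 2 in each cKO group such runs left a single library in an arm, so their counts are not given.

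In WT BMDMs the median with IFNg was −0.44, with 4 of 45 genes called lower (19.3% of all genes tested called lower). These were Spc25, a kinetochore gene, at 32.8 ± 11.6 CPM untreated and 17.01 ± 6.58 CPM treated (SD, n = 3; log2 −0.94, SE 0.33, adjusted p = 0.0454), Kif23, a kinesin of the central spindle, at 68.5 ± 25.1 and 37.5 ± 10.5 CPM (log2 −0.87, SE 0.28, adjusted p = 0.0325), the condensin gene Ncaph (log2 −0.87, SE 0.29, adjusted p = 0.0356) and Incenp, the scaffold of the passenger complex, at 104 ± 30.4 and 60.5 ± 14.6 CPM (log2 −0.79, SE 0.25, adjusted p = 0.0302). The share of the 45 genes called lower was thus under that of all genes tested. With the replicate number as a block, which pairs these libraries, 7 were called lower, with Mki67 (log2 −0.90, adjusted p = 0.0491), Anln (−0.98, adjusted p = 0.0338) and Ncapd2 (−0.81, adjusted p = 0.0308) added. Every library mattered: 17 genes were called in either direction without untreated replicate 2, 9 without IFNg replicate 1, and 1 without any of the other 4 libraries.

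Pttg1 rose with IFNg in both genotypes, 1 of 45 genes called higher in each, against 19.5% of all genes tested in WT and 17.5% in cKO cells. In WT BMDMs it was at 16.02, 13.3 and 14.4 CPM untreated and at 51.9, 52.5 and 44.6 CPM treated (log2 1.77, SE 0.17, adjusted p = 3.03e-05). In cKO BMDMs it was at 16.4 and 20.2 CPM untreated and at 90.0 and 66.5 CPM treated (log2 2.09, SE 0.21, adjusted p = 6.92e-05). Neither pair of groups overlapped.

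Between IFNg-treated cKO and WT BMDMs the median was −0.87 (1.83-fold lower), 42 of the 45 genes were below 0 and 22 had both cKO libraries under all WT libraries, as 18.7% of all genes tested had. None was called lower by edgeR, against 1.89% of all genes tested, while 19 had an unadjusted p under 0.05 and a lower level, and DESeq2 called 6 lower and 1 higher. Bub1 was at 34.9, 18.01 and 28.4 CPM in treated WT against 7.25 and 9.54 CPM in treated cKO cells, with the lowest adjusted p, 0.0514. Mki67 was at 357.3, 192 and 245 CPM in treated WT against 136 and 151 CPM in treated cKO cells. All cKO libraries were under all WT libraries in both genes. With no filter on low counts 27 genes were called lower, and without WT IFNg replicate 2 there was 1 call. The shares of all genes called in these fits are not given here. The interaction, which tests whether the IFNg response differed between genotypes, had a median log2 value of −0.85 with 41 genes below 0. None was called by edgeR or DESeq2, as for all genes tested (0% called), and 4 had an unadjusted p under 0.05.

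Signs of other cells differed between the day 8 libraries. The library cKO IFNg replicate 1 had the lowest depth, 3614967 counts, with both Xist (27.2 CPM) and the Y-linked Ddx3y (40.5 CPM), and a summed level of 359 CPM of stromal markers and 21.1 CPM of T cell markers. Of the 6 T cell markers, Cd3e, Cd3d, Cd3g and Trac were at 0 in the cKO IFNg group. The T cell sum thus came from the other markers of that list, such as Thy1 (9.84 ± 13.4 CPM, SD, n = 2). The TMM factor of cKO IFNg replicate 1 was 0.46, against 0.89 to 1.25 in the other libraries of the day 8 fit. The CPM values of this library rest on that factor. Summed stromal markers also differed among the untreated libraries, at 19.1, 93.7 and 21.5 CPM in WT and 49.8 and 116 CPM in cKO BMDMs, and WT untreated replicate 2, with 93.7 CPM, was the lowest of its group in all 45 mitotic genes. Spc24, a kinetochore gene, was at 23.6 CPM in cKO IFNg replicate 1 against 5.06 CPM in cKO IFNg replicate 2. Replicate 3 of WT was Xist-positive, both untreated and treated, unlike replicates 1 and 2. Without cKO IFNg replicate 1 and replicate 3 of WT, an alternative chosen after seeing the data, 1 gene was called in WT BMDMs with IFNg. The treated cKO group was then left with a single library. The part of sex and of other cells in these values was not tested.

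**Figure D2:**
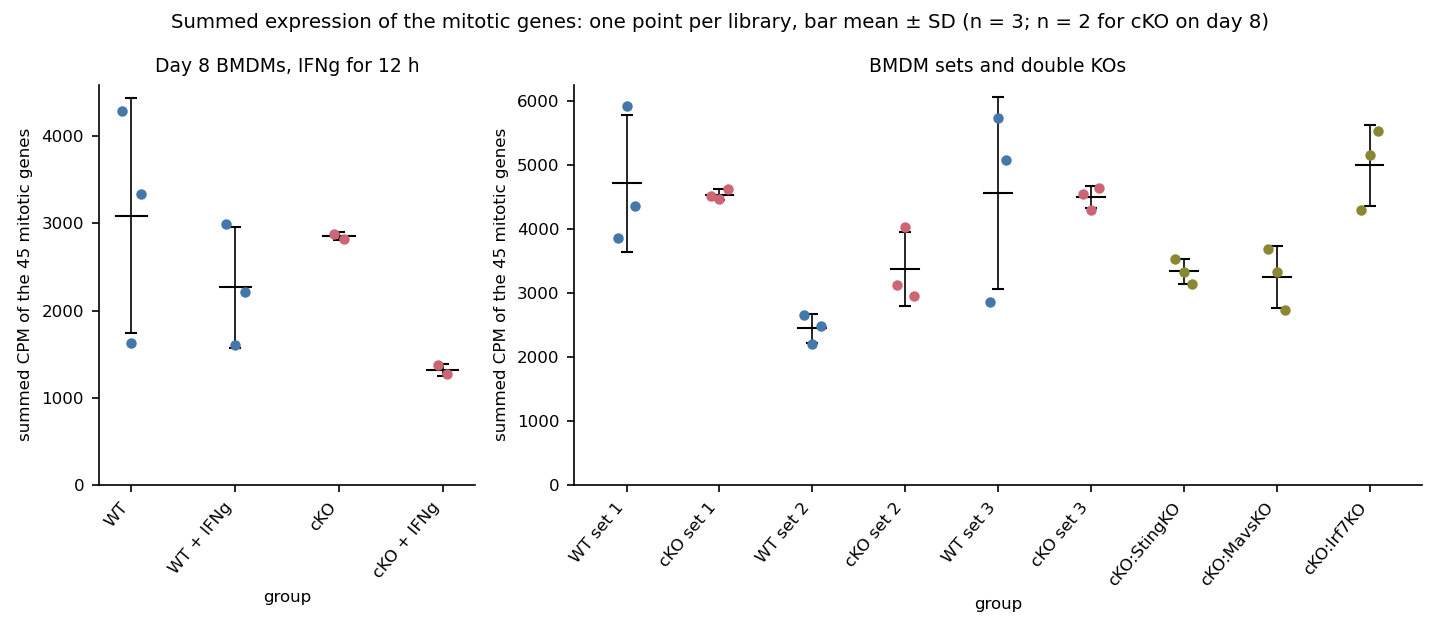
Summed CPM of the 45 mitotic genes (vertical axis, linear, from 0) in each library, for the day 8 groups and for the sets with the double knockouts; points are libraries and bars the mean ± SD. The cKO IFNg libraries, at 1372 and 1274, are the lowest of day 8, and WT set 2 is the lowest group of the sets at 2451 ± 229. The value of 1372 is from cKO IFNg replicate 1, whose TMM factor was 0.46.

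In peritoneal macrophages, which matured in the animal, the mitotic genes were higher in cKO cells by value. These libraries were made with a kit for low RNA input and amplification, unlike those of the BMDMs, so levels are compared only within the experiment. The summed level of the 45 genes was 1032 ± 228 CPM in WT and 1652 ± 505 CPM in cKO cells (SD, n = 3). The log2 fold change was above 0 for 44 of the 45 genes, with a median of 0.75 (1.68-fold). None was called by edgeR, against 1.06% of all genes tested, while 22 had an unadjusted p under 0.05 and a higher level, and DESeq2 called 6 higher and 1 lower. In 15 genes all cKO libraries lay above all WT libraries, as in 8.47% of all genes tested. Bub1b was at 35.0, 28.5 and 23.6 CPM in WT and at 42.5, 85.0 and 57.3 CPM in cKO cells. Kif4, a chromosome-bound kinesin, was at 10.7, 8.45 and 5.65 CPM in WT and at 14.1, 22.1 and 16.1 CPM in cKO cells. The cKO libraries lay above the WT libraries in both, and cKO replicate 2 was the highest in both. Mki67 was at 33.8, 36.5 and 34.9 CPM in WT and at 45.8, 76.9 and 71.8 CPM in cKO cells, with a log2 fold change of 0.88 and an adjusted p of 0.142. Pttg1 went the other way, at 35.0, 25.8 and 26.7 CPM in WT and 12.4, 18.5 and 12.7 CPM in cKO cells, with a log2 fold change of −0.99 and the lowest adjusted p, 0.121. The median over the 45 genes was 0.40 without cKO replicate 2 and 0.97 without WT replicate 1. The summed T cell markers were 3.19 to 14.5 CPM in WT and 12.0 to 38.2 CPM in cKO libraries, and stromal markers were 69.6 to 137 CPM and 27.2 to 58.0 CPM. Of the marker genes, Mrc1 was lower in cKO cells (2.60 against 28.1 CPM, log2 −3.35, adjusted p = 0.0079). Lyz1 was higher (4259 against 609 CPM, log2 2.81, adjusted p = 0.0120). Cxcl12 was lower (log2 −1.29, adjusted p = 0.0445), and Adgre1 and Csf1r were not called. The part of these markers was not tested.

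The antibody experiment asked whether interferon signalling through IFNAR1 bears on expression in cKO BMDMs. Of all comparisons made, those with the largest median differences of the mitotic genes lay between the antibody arms, in both genotypes. The comparisons share arms: the control antibody libraries enter both the contrast with no antibody and that with the IFNAR1 antibody, so the 2 contrasts are not independent of each other. In WT BMDMs 41 of the 45 genes fell with the control antibody against no antibody (5.96% of all genes tested called lower), with a median log2 fold change of −1.86 (3.63-fold lower), and in 44 genes all control libraries lay under all libraries without antibody, as in 20.6% of all genes tested. Against the control antibody, 44 of the 45 genes rose with the IFNAR1 antibody in WT BMDMs (7.38% called higher), with a median of 2.66 (6.31-fold). The summed level in WT BMDMs was 2710 ± 146 CPM without antibody, 709 ± 307 with the control and 4459 ± 2078 with the IFNAR1 antibody (SD, n = 3). In cKO BMDMs it was 1990 ± 444, 554 ± 170 and 2248 ± 1171 CPM in these arms. The IFNAR1 antibody was not tested against no antibody.

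Ube2c, the ubiquitin-conjugating enzyme of the anaphase-promoting complex, was at 34.0, 66.0 and 42.8 CPM without antibody, at 10.2, 3.23 and 4.21 CPM with control antibody and at 90.3, 147 and 23.8 CPM with IFNAR1 antibody in WT BMDMs. It had the largest log2 fold change in both WT contrasts, −3.02 with the control antibody (SE 0.67, adjusted p = 0.0151) and 3.89 with the IFNAR1 antibody against it (SE 0.69, adjusted p = 0.00377). Mki67 was at 560, 536 and 532 CPM without antibody, at 179, 73.0 and 83.7 CPM with control antibody and at 1098, 1146 and 424 CPM with IFNAR1 antibody. Ccnb1 was at 27.2, 27.3 and 25.0 CPM, then 10.3, 3.06 and 4.48 CPM, then 60.2, 64.4 and 21.1 CPM in these arms. In these 3 genes the control arm overlapped neither of the other arms, and IFNAR1 antibody replicate 3 was the lowest of its arm, as it was for 44 of the 45 genes. Cdc20, the activator of the anaphase-promoting complex, Ccnb2, Kif11 and Aurkb fell with the control antibody by log2 values of −2.46 (SE 0.59), −2.45 (SE 0.58), −2.40 (SE 0.50) and −2.34 (SE 0.60), with adjusted p of 0.0197, 0.0186, 0.0118 and 0.0266. Cenpf, Ccnb2, Cdc20 and Kif4 rose with the IFNAR1 antibody by 3.55 (SE 0.61), 3.50 (SE 0.59), 3.35 (SE 0.60) and 3.11 (SE 0.49), with adjusted p of 0.00350, 0.00327, 0.00380 and 0.00285. The genes that missed the test with the control antibody were Spc24 (adjusted p = 0.0510), Kif20a (0.0772), Cdc25c (0.135) and Pttg1, and Pttg1 was the gene that missed it with the IFNAR1 antibody.

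These calls depended on which libraries were used. Without WT control antibody replicate 2 or 3 there were 0 and 2 calls of the control antibody in WT BMDMs, and without WT no antibody replicate 2 or 3 there were 22 and 23. With the IFNAR1 antibody 38 to 44 genes were called when any 1 library was left out, but none with only these 6 libraries in the model.

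In cKO BMDMs 20 of the 45 genes fell with the control antibody (0.919% of all genes tested called lower), with a median of −1.81 (3.51-fold lower), and 38 rose with the IFNAR1 antibody against it (2.44% called higher), with a median of 1.93 (3.80-fold). In all 45 genes every control antibody library lay under every library of each other arm, as in 15.4% of all genes tested for the arm without antibody and 14% for the IFNAR1 arm. Mki67 was at 422, 403 and 267 CPM without antibody, at 99.2, 49.0 and 58.8 CPM with control antibody and at 687, 383 and 259 CPM with IFNAR1 antibody, with log2 fold changes of −2.39 (SE 0.44, adjusted p = 0.0176) and 2.67 (SE 0.45, adjusted p = 0.00578). Ube2c was at 27.9, 28.4 and 18.4 CPM, then 5.77, 2.53 and 3.53 CPM, then 81.0, 25.6 and 16.8 CPM, and its rise with the IFNAR1 antibody was 3.25 (SE 0.70, adjusted p = 0.0185). The control arm was the lowest in both, and replicate 3 was the lowest of the libraries without antibody and of those with IFNAR1 antibody in all 45 genes. Ccna2, which encodes cyclin A2, Kif4 and Top2a fell by −2.33 (SE 0.56), −2.32 (SE 0.50) and −2.23 (SE 0.47), with adjusted p of 0.0429, 0.0305 and 0.0286. Aurkb, Ccnb2 and Cdc25c rose with the IFNAR1 antibody by 2.70 (SE 0.64), 2.63 (SE 0.59) and 2.62 (SE 0.72), with adjusted p of 0.0253, 0.0210 and 0.0485. Leaving out cKO no antibody replicate 1 or 2, or cKO control antibody replicate 2 or 3, ended all 20 calls. Leaving out cKO control antibody replicate 2 or 3, or cKO IFNAR1 antibody replicate 1, left 1 of the 38 calls, and only these 6 libraries in the model gave 2, while DESeq2 called 41 lower with the control and 45 higher with the IFNAR1 antibody. Markers of other cells moved with the arms by value: in cKO libraries summed stromal markers were 36.6 to 79.2 CPM without antibody, 166 to 301 CPM with the control and 43.4 to 86.6 CPM with the IFNAR1 antibody, and neutrophil markers 74.0 to 96.6, 104 to 213 and 114 to 139 CPM. In WT libraries the stromal markers were 13.2 to 98.3, 13.3 to 222.5 and 5.65 to 111 CPM in these arms, which overlap. No neutrophil or stromal marker was called between the control and no antibody in cKO BMDMs, and 1 of 5 stromal markers tested was lower with the IFNAR1 antibody than with the control. The part of these cells was not tested.

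**Figure D3:**
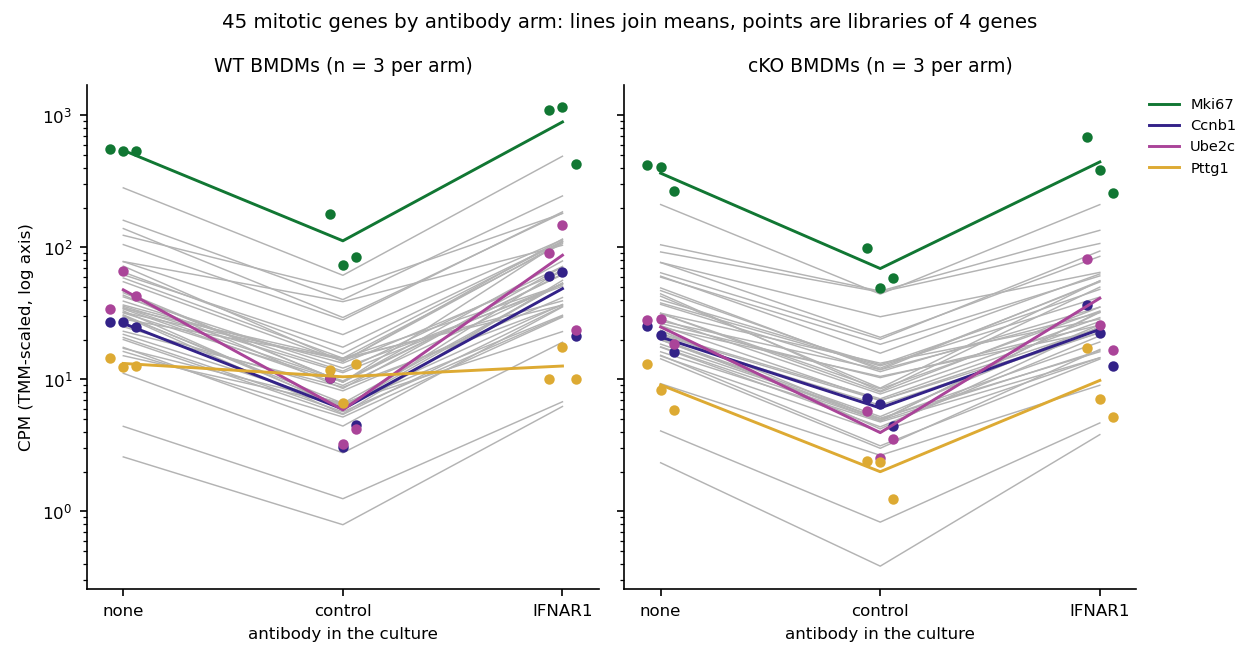
CPM (vertical axis, log scale) by antibody arm (none, isotype control, IFNAR1), for WT (left) and cKO (right) BMDMs; grey lines join the group means of each gene and coloured points are the libraries of Mki67, Ccnb1, Ube2c and Pttg1. Most lines dip at the control antibody in both genotypes, and Pttg1 dips in cKO cells and by less in WT cells.

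Between genotypes, arm by arm, few mitotic genes passed. Without antibody the median log2 fold change of cKO against WT was −0.39, with 41 genes below 0 and 21 with all cKO libraries under all WT libraries, as in 19.2% of all genes tested. None was called by edgeR or DESeq2 (8.16% of all genes tested called), 2 had an unadjusted p under 0.05, and the lowest value was Aurkb at −1.12, with 35.5, 50.7 and 44.0 CPM in WT and 24.1, 22.5 and 13.04 CPM in cKO cells. Without cKO no antibody replicate 3 the median was −0.20. With the control antibody the median was −0.30 and 1 of 45 genes, Pttg1, was called lower (1.68% of all genes tested called lower). Pttg1 was at 10.4 ± 3.37 CPM in WT (SD, n = 3) and at 2.39, 2.35 and 1.25 CPM in cKO BMDMs (log2 −2.32, SE 0.48, adjusted p = 0.00950), which do not overlap. That call was lost without cKO control antibody replicate 3, and the median turned to 0.17 without WT control antibody replicate 1. With the IFNAR1 antibody all 45 genes were below 0, with a median of −0.96 (1.95-fold lower), from Cdc20 at −1.38 to Pttg1 at −0.32. None was called by edgeR or DESeq2, against 0.215% of all genes tested called lower, although 32 had an unadjusted p under 0.05. All cKO libraries lay under all WT libraries in 2 genes, against 4.47% of all genes tested. Without WT IFNAR1 antibody replicate 3 there were 15 calls, all lower, and without cKO IFNAR1 antibody replicate 1 there was 1.

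The interaction of genotype with IFNAR1 against control antibody had a median log2 value of −0.69, from Kif23 at −1.36 to Pttg1 at 1.996. None was called by edgeR or DESeq2, as for all genes tested (0% called), 2 had an unadjusted p under 0.05, and the lowest adjusted p was 0.599. All libraries of this experiment were Xist-positive, at 1124 CPM or more, and H3f3b stood lower in its cKO groups than in those of the other experiments, as given above.

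The 3 sets of WT and cKO BMDMs asked about the same genotype difference again, and set 2 differed from the other two. In set 2, 18 of the 45 genes rose in cKO BMDMs (10.1% of all genes tested called higher), with a median log2 fold change of 0.51 (1.42-fold) and no value below 0. The calls were 4 of 4 genes of anaphase and exit, 6 of 9 motor and spindle genes, 3 of 6 genes of mitotic entry, 2 of 3 kinases, 2 of 6 kinetochore genes and 1 of 4 checkpoint genes, and none of condensin, the passenger complex, cytokinesis or the proliferation markers. Cdc20 was at 18.1, 15.5 and 18.3 CPM in WT and at 33.5, 46.2 and 33.2 CPM in cKO libraries (log2 1.12, SE 0.23, adjusted p = 0.0009). Plk1, the polo-like kinase of mitotic entry, was at 22.3, 18.1 and 20.1 CPM in WT and at 38.3, 49.8 and 35.5 CPM in cKO libraries (log2 1.03, SE 0.22, adjusted p = 0.00113). The genotypes did not overlap in either gene. Cdc25c, Ccnb2 and Ube2c rose by 0.95 (SE 0.23), 0.92 (SE 0.21) and 0.86 (SE 0.21), with adjusted p of 0.00317, 0.00194 and 0.00429. cKO replicate 2 was the highest cKO library of set 2 in all 45 genes, and without it 7 genes were called, while without WT replicate 2 of set 2 there were 10.

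In sets 1 and 3 the median was near 0 (−0.0009 and 0.0088) and 3 of the 45 genes were called in each. Ccnb2 and Cdc25b were called lower in both (2 of 45 genes, against 16.7% of all genes tested in set 1 and 18.8% in set 3), and Pttg1 was called higher in both (1 of 45 genes, against 17.9% and 17.1%). In set 1, Ccnb2 was at 79.8, 126 and 111 CPM in WT and at 55.8, 57.0 and 59.0 CPM in cKO libraries (log2 −0.88, SE 0.20, adjusted p = 0.0013), and Cdc25b at 105, 164 and 145 CPM against 68.6, 67.1 and 79.4 CPM (log2 −0.94, SE 0.17, adjusted p = 0.00012). Pttg1 was at 14.7, 14.1 and 18.4 CPM in WT and at 26.1, 26.5 and 29.9 CPM in cKO libraries of set 1 (log2 0.81, SE 0.16, adjusted p = 0.000284). The genotypes did not overlap in any of the 3 genes. In set 3 the values were much alike, with Ccnb2 at −0.85 (SE 0.20, adjusted p = 0.00178), Cdc25b at −0.83 (SE 0.17, adjusted p = 0.000463) and Pttg1 at 0.85 (SE 0.16, adjusted p = 0.000165). WT replicate 1 of set 3 was the lowest WT library of its set in all 45 genes, with Mki67 at 455 CPM against 940 and 757 CPM. Without it 8 genes were called in set 3, without WT replicate 2 of set 3 there were 6, and without WT replicate 2 of set 1 there were 6 in set 1.

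The cKO effect itself differed between set 2 and the others. Against set 1 it was higher in set 2 for 11 of the 45 genes (8.29% of all genes tested called higher), led by Ccnb2 (log2 1.80), Cdc20 (1.68), Cdc25b (1.39), Cdc25c (1.25) and Ube2c (1.11). Against set 2 it was lower in set 3 for 12 of the 45 genes (9.46% called lower), led by Ccnb2 (−1.76), Cdc20 (−1.56), Cdc25b (−1.27), Cenpf (−1.17) and Ube2c (−1.15). Both comparisons share the libraries of set 2, and without WT replicate 1 of set 3 the second count was 29. Between sets 1 and 3 none of the 45 was called by edgeR or DESeq2, as for all genes tested (0% called), none had an unadjusted p under 0.05, and the median was 0.04. The WT libraries of set 2 were the lowest of the experiment, with a summed level of 2451 ± 229 CPM against 4713 ± 1072 CPM in WT set 1 and 4561 ± 1504 CPM in WT set 3 (SD, n = 3), and the cKO libraries of set 2 stood at 3375 ± 581 CPM against 4535 ± 82.8 and 4496 ± 175 CPM. The libraries of set 2 and of cKO:MavsKO were Xist-positive, at 1001 CPM or more, and those of the other groups of this experiment had Xist near 0, so sex and set cannot be told apart. The labels do not say whether sets 1 and 3 are separate cultures, and their deviations from the group means correlated for libraries of the same number (correlations of 0.58, 0.55 and 0.17 in WT, 0.39, 0.04 and 0.30 in cKO cells), given here as a description over the genes tested.

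Myeloid progenitor markers were higher in the cKO libraries of each set, with 9 of 9 called higher. The shares of all genes tested called higher were 17.9, 10.1 and 17.1% in sets 1, 2 and 3. Their summed level was 16.5 to 21.7 CPM in WT and 142 to 172 CPM in cKO libraries of set 1, 9.199 to 27.4 CPM and 81.9 to 93.0 CPM in set 2, and 17.3 to 22.7 CPM and 114 to 198 CPM in set 3. Of 10 macrophage markers 5 were called lower in each set (16.7% of all genes tested in set 1 and 18.8% in set 3). Their part in the level of the mitotic genes was not tested.

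**Figure D4:**
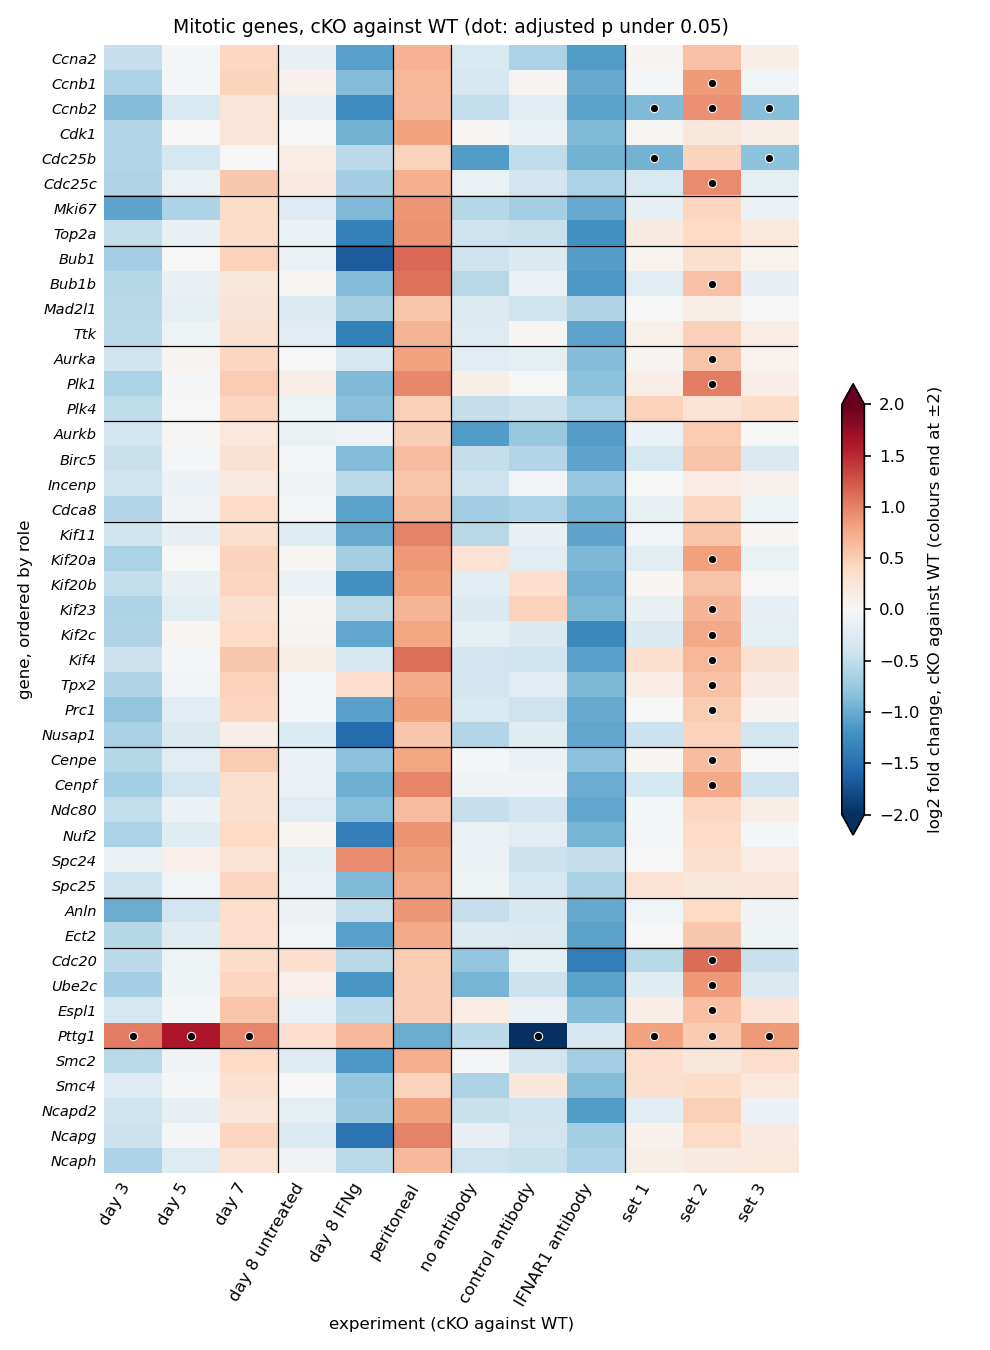
Log2 fold change of cKO against WT (colour, ending at −2 and 2; blue lower, red higher) for the 45 mitotic genes (rows, by role) in 12 comparisons (columns); a dot marks an adjusted p under 0.05. The day 3 column is lower and the peritoneal column higher for 44 of 45 genes, and Pttg1 carries a dot in 7 columns.

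The double knockouts asked whether Sting, Mavs or Irf7 bears on expression in cKO BMDMs, and each was compared with the mean of the 3 cKO sets, since the labels do not tie a double knockout to a set. In sample order cKO:StingKO follows set 1, cKO:MavsKO set 2 and cKO:Irf7KO set 3. That mean joins Xist-positive set 2 with sets 1 and 3, which had Xist near 0. The p-values do not take in the spread between sets. In these comparisons set and sex cannot be told apart from the double knockout. Tmem173, which encodes Sting, was at 5.52 CPM in cKO:StingKO BMDMs against 72.0 to 88.1 CPM in the cKO sets, Mavs at 37.5 CPM in cKO:MavsKO BMDMs against 38.9 to 49.9 CPM, close to the lowest cKO set, and Irf7 at 106 CPM in cKO:Irf7KO BMDMs against 310 to 388 CPM. In cKO:StingKO BMDMs 13 of the 45 genes were lower (17.2% of all genes tested called lower) and 2 higher (19.1%), with a median log2 value of −0.27. Smc2, the core ATPase of condensin, was at 87.1, 98.1 and 80.2 CPM in cKO:StingKO BMDMs against 152 ± 3.71, 146 ± 21.3 and 165 ± 5.26 CPM (SD, n = 3) in the cKO sets (log2 −0.80, SE 0.17, adjusted p = 0.000809). Ncapg was at 25.1 ± 3.43 CPM against 43.8 ± 3.97, 36.2 ± 6.49 and 48.8 ± 1.44 CPM (log2 −0.76, SE 0.19, adjusted p = 0.00246). Both condensin genes were lower against each of the sets by value. Spc25, Bub1 and Plk4, the kinase of centriole duplication, were lower by −0.62 (SE 0.20), −0.58 (SE 0.17) and −0.57 (SE 0.15), with adjusted p of 0.0148, 0.00824 and 0.00536, and Pttg1 and Cdc25b were higher. Against cKO set 1 or cKO set 3 alone 15 and 20 genes were lower, but against cKO set 2 alone 1 was lower and 5 higher. Without cKO:StingKO replicate 1 or 3 there were 9 and 7 calls.

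The gene-level count of Mavs does not tell the libraries labelled cKO:MavsKO, at 37.2 to 37.9 CPM, from cKO set 3, at 36.01 to 41.9 CPM, and so does not check the label; counts over the deleted part were not examined. In these libraries 8 of the 45 genes were lower (3.42% of all genes tested called lower), and all 45 had values below 0, with a median of −0.36. Nusap1 was at 33.2 ± 6.17 CPM against 65.2 ± 4.598, 37.7 ± 10.3 and 64.3 ± 2.20 CPM (SD, n = 3) in cKO sets 1, 2 and 3 (log2 −0.70, SE 0.20, adjusted p = 0.0243), so it stood near set 2 and under the other sets. Ccnb2, Cenpf, Pttg1 and Ube2c were lower by −0.60 (SE 0.17), −0.57 (SE 0.16), −0.56 (SE 0.13) and −0.56 (SE 0.18), with adjusted p of 0.0265, 0.0251, 0.00612 and 0.0452. The result depended on the reference, since 17 and 16 genes were lower against cKO set 1 or set 3 alone and none against cKO set 2 alone, the set that was Xist-positive as the cKO:MavsKO libraries were. cKO:MavsKO replicate 3 was the lowest of its group in all 45 genes, and there were no calls without it, 2 without replicate 2, 4 without cKO set 2 replicate 2, and 5 without replicate 1 or 2 of cKO set 1 or replicate 1 or 3 of cKO set 3.

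In cKO:Irf7KO BMDMs 4 of the 45 genes were higher (4.81% of all genes tested called higher), and all 45 had values above 0, with a median of 0.29. Ccnb2 was at 77.2, 77.7 and 75.4 CPM against means of 57.3, 33.5 and 54.8 CPM in the cKO sets (log2 0.70, SE 0.16, adjusted p = 0.0049). Cdc25b was at 91.9 ± 2.90 CPM against 71.7 ± 6.71, 44.0 ± 9.99 and 68.1 ± 4.33 CPM (SD, n = 3; log2 0.62, SE 0.13, adjusted p = 0.00374). The other calls were Cenpf (log2 0.55, SE 0.15, adjusted p = 0.0197) and Pttg1 (log2 0.51, SE 0.12, adjusted p = 0.00734). Against cKO set 2 alone 26 genes were higher, against set 1 or set 3 alone none, and without cKO set 2 replicate 2 there were 9 calls. The summed progenitor markers were 87.3 to 117 CPM in cKO:StingKO, 72.9 to 80.1 CPM in cKO:MavsKO and 42.0 to 74.3 CPM in cKO:Irf7KO libraries. Summed stromal markers were 164 to 202 CPM in cKO:StingKO libraries (4 of 7 called higher, against 19.1% of all genes tested). They were 84.3 to 299 CPM in cKO:MavsKO (6 of 7 called higher, with the share of all genes not given here) and 29.6 to 48.5 CPM in cKO:Irf7KO libraries, against 23.3 to 70.9 CPM in the cKO sets. The part of these cells was not tested.

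**Figure D5:**
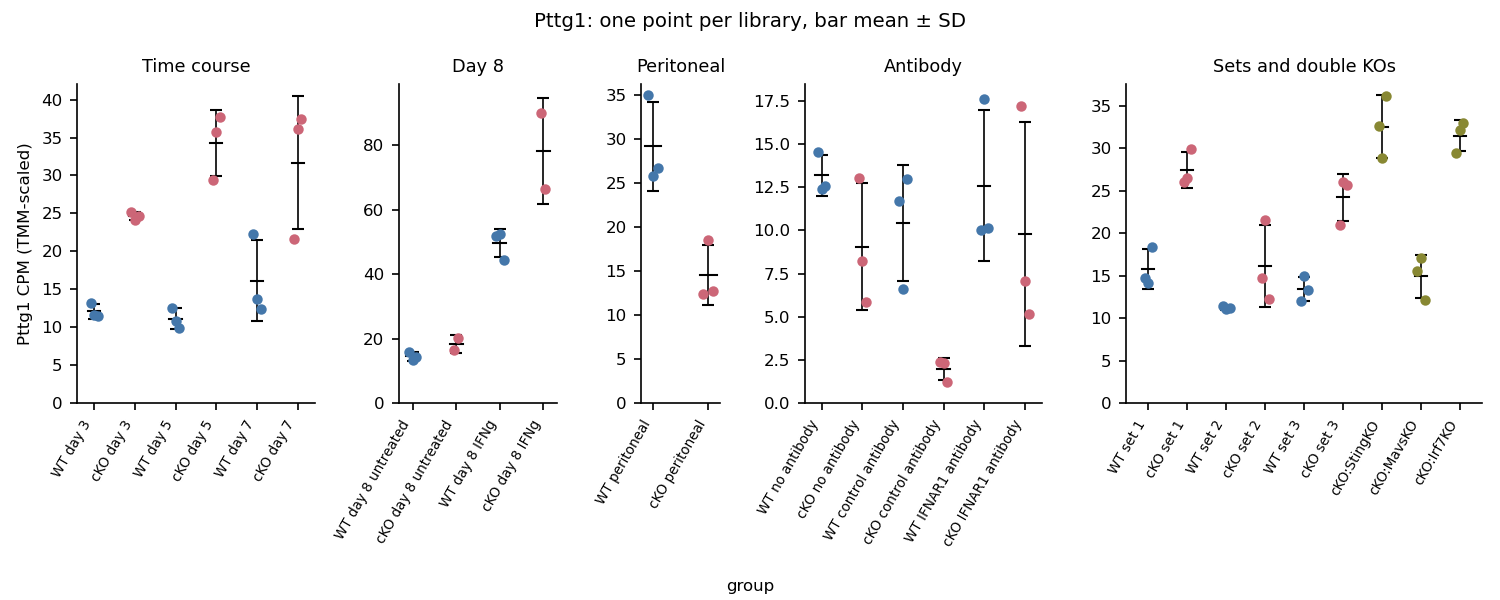
CPM of Pttg1 (vertical axes, linear, each from 0) in every library of the 5 experiments; points are libraries (WT blue, cKO red, double knockouts olive) and bars the mean ± SD. The cKO points lie above the WT points on days 3 and 5 and in sets 1, 2 and 3, and under them in peritoneal macrophages and with the control antibody.

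Other lists of the cell cycle were set beside the 45 genes, with no gene in common. Of 58 other genes of the spindle, kinetochore and cytokinesis none was called in cKO cells on day 3 (median log2 fold change −0.43). In WT BMDMs 42 were lower with the control antibody (5.96% of all genes tested). Against it, 56 were higher with the IFNAR1 antibody (7.38% of all genes tested). In set 2, 19 of the 58 were higher (10.1% of all genes tested) and 1 lower, among them Ccnf (0.89), Hmgb2 (0.83) and Cenpa (0.81). In set 1 there were 2 higher (17.9% of all genes tested) and 4 lower (16.7%), led by Psrc1 (−1.30) and Cenpa (−1.02). Of 46 genes of DNA replication none was called on day 3 (median −0.23). In cKO cells 30 were higher in set 1 (median 0.54), 32 in set 3 (median 0.68) and 1 in set 2 (median 0.00). The shares of all genes tested called higher in these sets were 17.9, 17.1 and 10.1%.

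Of 23 transcription factors of these genes, 1 was called on day 3, Nfya, a subunit of the factor that binds CCAAT, which was lower (log2 −0.84, SE 0.15, adjusted p = 0.00253). Of all genes tested on day 3, 2.64% were called lower and 6% higher. Foxm1, the G2/M activator, was at −0.43 on day 3 (adjusted p = 0.421), fell by −2.33 with the control antibody in WT BMDMs (adjusted p = 0.0198), and rose with the IFNAR1 antibody by 3.12 in WT (adjusted p = 0.00424) and 2.37 in cKO BMDMs (adjusted p = 0.0261). Of 17 cell cycle brakes, 2 were higher in cKO cells on day 3, Cdkn1c, an inhibitor of cyclin-dependent kinases (log2 2.88, SE 0.37, adjusted p = 0.000225), and Gadd45b, a stress-response gene (log2 1.50, SE 0.31, adjusted p = 0.00554), and 1 on day 5, Cdkn1c (log2 1.53, adjusted p = 0.0418). None of 15 subunits of the anaphase-promoting complex (median −0.14) and none of 13 cohesin genes was called on day 3.

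Some of the 45 genes share sequence with others. Of the exon bases of Kif20a 29.3% lie under exons of other genes, of those of Ube2c 22.8%, and of those of Kif4, Ncapg, Cdc25c, Ccna2 and Prc1 15.1, 13.4, 12.7, 12.5 and 11.1%, and reads there can be counted for either gene or for none. Pseudogenes of Ccnb1, Ccnb2 and Kif4 are annotated, so the counts of these genes are less certain than those of the others.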

How the data were processed

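RNA of BMDMs was depleted of ribosomal RNA, and libraries of peritoneal macrophages were made with SMART-Seq v4, a low-input kit, and amplification. Per the labels and the methods, the authors trimmed reads with cutadapt and aligned them with STAR to mm10 (versions not given in the sources used here), and they deposited raw counts per gene for each library, of which the unstranded counts were used here. Each experiment was fitted alone, all its groups in 1 model, with edgeR 4.0.16 in R 4.3.3 (filterByExpr with a smallest count of 10 and total of 15, TMM factors, quasi-likelihood F-test, Benjamini-Hochberg adjustment over all genes tested, two-sided). DESeq2 1.42.0, another normalization, no filter, smaller models and leaving out libraries were alternatives. limma 3.58.1 was loaded with edgeR. The tests were checked on simulated counts, with the same spread for every gene and no shift shared by the genes of a library. That check does not speak to such shifts in the real libraries. The members and lists were chosen with earlier results of these data known. In the time course 8 members were named in every library, and in each comparison up to 5 called members with the largest fold change. In other lists up to 3 called genes with the smallest adjusted p were named, and further genes were named after their values were seen. Same-numbered libraries deviated together (correlation over 0.1 in every pair, from 3 pairs) in cKO against WT on day 3 (0.126 to 0.419) and day 7 (0.153 to 0.467), cKO day 7 against day 5 (0.233 to 0.492), IFNg in WT (0.335 to 0.451), peritoneal macrophages (0.144 to 0.194) and control antibody in WT (0.145 to 0.284). The source of the pairing is the replicate number in the labels. On day 8, 2 further cKO libraries with conflicting labels were put in no group.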

Additional observations from a re-analysis of the deposited data

Results flagged for a closer look

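The cKO effect on the mitotic genes differed between sets by a test of the difference itself. It was higher in set 2 than in set 1 for 11 of the 45 genes, and lower in set 3 than in set 2 for 12 of the 45 genes. Ccnb2 showed it most, with a log2 fold change of cKO against WT of −0.88 in set 1, 0.92 in set 2 and −0.85 in set 3. The WT libraries of set 2 had 15.6 to 19.9 CPM of Ccnb2, and the other WT sets 64.0 CPM or more. Set 2 differs from the other sets also in Xist, so that sex and set cannot be told apart. What caused the difference was not tested.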

How the results depend on the processing

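Counts are of the 45 genes called in either direction. The shares of all genes called in each alternative are not given, so these counts cannot be set against the shares of the main fits. With DESeq2 there were 5 in cKO against WT on day 3, 21 in cKO cells from day 3 to day 5, 1 in the change of the cKO effect from day 3 to day 7, 7 in cKO against WT with IFNg, 9 with IFNg in WT, 7 in peritoneal macrophages, 41 with the control antibody in cKO cells and 5 in set 1. With no filter there were 0 in WT from day 3 to day 5, 27 in cKO against WT with IFNg, 15 and 36 with IFNg in WT and cKO cells, 2 in the IFNg interaction, 16 in peritoneal macrophages and 33 with the control antibody in cKO cells. With only the groups compared there were 33 on day 3, 0 on day 7, 6 and 38 from day 3 to day 5 in WT and cKO cells, 8 and 13 with IFNg in WT and cKO cells, 4 without antibody, 44 with the control antibody in cKO cells, 0 and 2 with the IFNAR1 against the control antibody in WT and cKO cells, 5 in set 1, 36 in set 2, 18 in set 2 against set 1, 7 in set 3 against set 2, and 31, 33 and 28 in the Sting, Mavs and Irf7 double knockouts. The smaller models estimate the spread from fewer samples. Against cKO set 2 alone the double knockouts had 6, 0 and 26 calls, against set 1 alone 17 (Mavs) and 0 (Irf7), and against set 3 alone 16 (Mavs) and 0 (Irf7). Without the 3 libraries of day 8 with Xist or mixed signals there was 1 call with IFNg in WT cells, and the treated cKO group was left with a single library. The other normalization moved no count by over 1.5 times. In other cases the cause was not tested.

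With the replicate number as a block there were 2 calls on day 3 and 8 with IFNg in WT, where the numbers pair the libraries, and the block changed no other count by over 1.5 times in the comparisons it pairs. Where libraries share only a number, the replicate block gave 2 calls without antibody, 3 with the IFNAR1 antibody and 42 with the control antibody in cKO cells. With the 2 cKO IFNg numbers crossed, chosen after seeing the data, there were 24 calls against 29 with the replicate block as numbered and 21 without it.

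Leaving out 1 library at a time gave 1 to 2 in cKO against WT day 3 and 0 to 1 in cKO against WT day 7. It gave 0 to 1 in WT day 5 against day 3, 0 to 1 in WT day 7 against day 5 and 0 to 26 in cKO day 5 against day 3. On day 8 it gave 1 to 17 in IFNg against untreated WT. Ranges for the day 8 cKO groups are not given, since such runs left a single library in an arm. In the antibody experiment it gave 0 to 1 in cKO against WT control antibody and 0 to 15 in cKO against WT IFNAR1 antibody. It gave 0 to 41 in control against no antibody WT, 0 to 21 in control against no antibody cKO and 1 to 45 in IFNAR1 against control antibody cKO. In the sets it gave 3 to 6 in cKO against WT set 1, 7 to 22 in set 2, 3 to 8 in set 3 and 8 to 29 in the cKO effect of set 3 against set 2. It gave 7 to 17 in cKO:StingKO against cKO, 0 to 8 in cKO:MavsKO against cKO and 3 to 9 in cKO:Irf7KO against cKO.

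Of 75 named genes and comparisons, 28 kept their call in every alternative run; over 1016 pairs of a named gene and an alternative, 161 lost the call and 0 changed direction. Counts of under 10 per library, as for Cdc25c with the control antibody, limit what can be seen of low genes.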

Other observations

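The labels of 2 cKO libraries of day 8 conflict, so they were put in no group. With all 12 libraries of day 8 scaled together, the library titled as IFNg-treated had a summed level of 3206 CPM over the 45 genes and the library titled as untreated had 1279 CPM. On that scale the other cKO libraries stood at 2934 and 2889 CPM untreated and at 1337 and 1287 CPM with IFNg.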
